A study of Mus musculus with 14 samples.

Results

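Genes of S phase and of mitosis were followed through mouse salivary gland organoids and tissue, as separate lists. The 42 genes were chosen by symbol for their known roles, 18 for S phase and 24 for mitosis, and all 42 were found among the 45777 genes of the deposited tables. Bulk RNA-seq covered 14 libraries in 7 groups of 2. These were parotid (PG), sublingual (SLG) and submandibular (SMG) organoids in differentiation accelerating media (DAM), SMG organoids in growth and expansion media (GEM), and PG, SLG and SMG tissue. All material came from wild-type female C57BL/6 mice aged 6 to 8 weeks. A legend of the study calls the DAM organoid samples biologically independent. The labels do not say whether libraries of a group came from separate animals or cultures, so that p-values for the GEM and tissue measure a spread between libraries that may be technical. Both media held NRG1, RSPO1, Noggin, FGF1, FGF7 and A83-01. The ROCK inhibitor Y-27632 (10 µM) was present only in the GEM, and DAPT (5 µM), a γ-secretase inhibitor that blocks Notch signaling, only in the DAM, so that the effects of these agents cannot be told apart. The labels give 3 days in either medium, whereas the legends of the study describe 9 days in the GEM before 3 in the DAM. By the legends time in culture thus also differed between the media, and it cannot be told apart from them. The tissue libraries had no culture step, although the labels name their source as epithelial cells.

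The depth was 56383651 to 69139767 counts in organoid libraries and 57397998 to 71367044 counts in tissue libraries. The 10 most abundant genes took 7.37% to 9.07% of the counts in organoids and 47.0% to 80.2% in tissue. Levels are given as CPM, counts relative to the library size, which was therefore scaled with the trimmed mean of M-values (TMM). Organoids were compared with each other on the scale of the 8 organoid libraries, and organoids were set against tissue on the scale of all 14, so that a library has slightly different CPM on each. On the scale of all 14, replicate 1 of SMG tissue had a size of 21798776 before TMM and 17216818 after it. Its depth was 63525160 counts. For replicate 1 of SMG organoids in the DAM the sizes were 64305848 and 71577877, and the depth was 65607565 counts. Tissue CPM are therefore higher than counts relative to the full depth would be. CPM of tissues set against each other are on the scale of all 14 too. Their fold changes come from the model of the 6 tissue libraries, so that the printed CPM do not give exactly those folds. On the scale of all libraries, 6 epithelial markers (Epcam, Cdh1 and keratins) summed to 8066 to 11380 CPM in organoids and 1328 to 2550 CPM in tissue. Of these Krt5 was at 2115 to 5228 CPM in organoids and 19.2 to 45.5 CPM in tissue. Krt8 was at 386 and 353 CPM in SMG organoids in the DAM, against 357 and 368 CPM in SMG tissue. It was higher in PG and SLG organoids than in tissue of those glands. Bulk RNA cannot tell apart fewer dividing cells from less of these transcripts per cell.

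A dividing cell copies its DNA in S phase and separates the copies in mitosis. Before S phase the minichromosome maintenance helicase, built from Mcm2 to Mcm7, is loaded at origins by Cdc6 and Cdt1, and the E-type cyclins and E2f1 drive entry. Mitotic transcripts build up later in the cycle, when cyclin B with Cdk1 starts mitosis and the anaphase-promoting complex with Cdc20 and Ube2c ends it. The early genes are known targets of E2F factors. Many late genes are known targets of the DREAM and MuvB complexes with B-Myb and FoxM1, which act through a cell-cycle genes homology region (CHR) in the promoter. In the adult salivary gland few cells divide.

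The promoters of the genes, which played no part in their choice, were searched for such words. RefSeq promoter windows of 300 bases on GRCm38.p6, 250 before and 50 after a start site, were at hand for 33 of the 42 genes. A CHR was searched as TTTGAA or TTCGAA on both strands, and an E2F site as TTTCCCGC, TTTCGCGC, TTTGCCGC or TTTGGCGC on both strands, where E2F words can overlap each other. A CHR word lay in the windows of 15 of 19 mitosis genes and 2 of 14 S-phase genes, against 19.2% of all 32851 windows. An E2F word lay in the windows of 1 of 19 mitosis genes and 6 of 14 S-phase genes, against 2.26% of all windows. The box CCAAT, searched on both strands, lay in the windows of 17 of 19 mitosis genes and 9 of 14 S-phase genes, against 37.4% of all windows. Cdk1 and Mcm7 had both a CHR and an E2F word, and the windows of 11 members had neither. Stretches before the start site of 7 genes are printed 5′ to 3′ to show how such words lie, with CHR and E2F words in capitals. The genes were chosen for holding a word, and bases inside an annotated gene were left out.
Mcm6: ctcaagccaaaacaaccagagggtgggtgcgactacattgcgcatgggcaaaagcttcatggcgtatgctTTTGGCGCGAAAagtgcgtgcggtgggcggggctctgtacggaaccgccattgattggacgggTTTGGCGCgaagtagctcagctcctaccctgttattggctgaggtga
Mcm5: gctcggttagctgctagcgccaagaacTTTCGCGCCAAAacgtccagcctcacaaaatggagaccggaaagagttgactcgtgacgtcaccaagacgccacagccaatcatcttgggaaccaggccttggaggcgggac
Cdk1: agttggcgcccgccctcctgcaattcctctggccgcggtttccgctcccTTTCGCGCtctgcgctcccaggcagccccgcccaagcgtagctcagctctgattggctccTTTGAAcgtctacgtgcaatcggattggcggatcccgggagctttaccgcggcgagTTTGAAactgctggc
Mki67: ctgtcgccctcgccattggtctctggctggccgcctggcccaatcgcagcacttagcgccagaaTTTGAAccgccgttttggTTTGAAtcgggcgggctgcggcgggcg
Top2a: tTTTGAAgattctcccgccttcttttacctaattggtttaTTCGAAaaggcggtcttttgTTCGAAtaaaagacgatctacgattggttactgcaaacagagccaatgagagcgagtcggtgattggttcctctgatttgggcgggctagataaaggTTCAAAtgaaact
Cdc20: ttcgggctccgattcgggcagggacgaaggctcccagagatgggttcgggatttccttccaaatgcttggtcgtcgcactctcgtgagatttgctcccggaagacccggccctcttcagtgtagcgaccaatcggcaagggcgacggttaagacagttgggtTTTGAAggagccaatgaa
Ube2c: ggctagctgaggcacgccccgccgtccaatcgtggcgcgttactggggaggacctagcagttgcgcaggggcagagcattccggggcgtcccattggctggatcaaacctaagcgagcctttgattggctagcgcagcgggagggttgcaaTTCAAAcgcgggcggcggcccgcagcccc

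In the order shown these stretches lie at chr1:128359706-128359885 (minus strand), chr8:75109329-75109467 (plus strand), chr10:69352913-69353092 (minus strand), chr7:135716451-135716559 (minus strand), chr11:99024200-99024369 (minus strand), chr4:118437344-118437523 (minus strand) and chr2:164769749-164769928 (plus strand). Mcm6 and Mcm5, helicase subunits, have E2F words here and no CHR word. Mki67, Top2a, Cdc20 and Ube2c have CHR words and no E2F word, and Cdk1 has both kinds. A match describes letters and is no measured binding.

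Levels of different genes were compared per length, in TPM, read counts divided by transcript length and set to a common total. In SMG organoids in the DAM, Pcna, the sliding clamp of DNA polymerases, was the most abundant member at a mean of 183 TPM. Ube2c, the ubiquitin-conjugating enzyme of the anaphase-promoting complex, followed at 68.0 TPM and Mcm7 at 48.4 TPM. Cdc6 was the least abundant at 1.15 TPM. In SMG tissue Pcna was again first, at 8.15 TPM, and Cdc6 again last, at 0.0179 TPM. Ube2c ranked number 10 of the 42 there, at 0.627 TPM.

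The first question was whether the change of media, meant to advance differentiation, altered the cell-cycle genes of SMG organoids. Mitosis genes were lower in the DAM than in the GEM, and only Rrm2 of the S-phase genes passed the test. All 24 mitosis genes had a log2 fold change below 0, with a median of -0.61, against 0.01 over all 16260 genes tested. By edgeR's quasi-likelihood test 21 of 24 were lower at an adjusted p under 0.05, beside 12.1% of all genes. A call also required a change beyond 1 on the log2 scale (2-fold), and by that rule none of the 24 was called, beside 1.15% of all genes called lower. The 3 that missed the adjusted p were Ttk (-0.45), Birc5 (-0.35) and Kif23 (-0.27). Without replicate 1 of SMG organoids in the DAM 14 passed, and over all settings tried 14 to 23.

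Mki67, the nuclear antigen used to mark cycling cells, had the lowest fold change. It was at 112 and 123 CPM in the DAM, against 209 and 224 CPM in the GEM. The difference was -0.88 ± 0.08 on the log2 scale (SE, 2 libraries a group, adjusted p = 7.16e-05 by edgeR). Both DAM libraries thus lay well under both GEM libraries. Top2a, the topoisomerase that untangles sister chromatids, was at 139 and 153 CPM in the DAM, against 199 and 214 CPM in the GEM (-0.50 ± 0.08, adjusted p = 0.0018 by edgeR).

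The cyclins with their kinase, Ccna2, Ccnb1, Ccnb2 and Cdk1, were all lower. Ccnb1, cyclin B1, was at 28.4 and 32.6 CPM in the DAM, against 46.1 and 51.2 CPM in the GEM (-0.67 ± 0.10). Cdk1 was at 49.0 and 59.0 CPM in the DAM, against 65.7 and 76.5 CPM in the GEM (-0.40 ± 0.11, adjusted p = 0.037 by edgeR). So was the pair that ends mitosis. Cdc20, the activator of the anaphase-promoting complex, was at 31.6 and 30.6 CPM in the DAM, against 44.9 and 51.3 CPM in the GEM (-0.63 ± 0.09). Ube2c was at 37.6 and 40.1 CPM in the DAM, against 59.4 and 67.3 CPM in the GEM (-0.71 ± 0.09).

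Among the mitotic kinases Ttk alone missed the adjusted p. Aurkb, the kinase of the chromosomal passenger complex, was at 19.2 and 17.5 CPM in the DAM, against 24.3 and 27.0 CPM in the GEM (-0.49 ± 0.12). Plk1, polo-like kinase 1, was at 17.4 and 18.8 CPM in the DAM, against 22.8 and 29.9 CPM in the GEM (-0.54 ± 0.12). The checkpoint genes Bub1 and Bub1b changed by -0.69 and -0.68. Cenpa is the histone H3 variant of centromeres. It was at 28.1 and 23.7 CPM in the DAM, against 38.7 and 38.6 CPM in the GEM (-0.58 ± 0.10). Foxm1, the transcription factor of late cell-cycle genes, was at 13.4 and 13.5 CPM in the DAM, against 16.5 and 21.2 CPM in the GEM (-0.49 ± 0.12). All 24 mitosis genes had both DAM libraries under both GEM libraries, beside 31% of all genes. The plot of fold changes between the media shows every member.

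**Figure D1:**
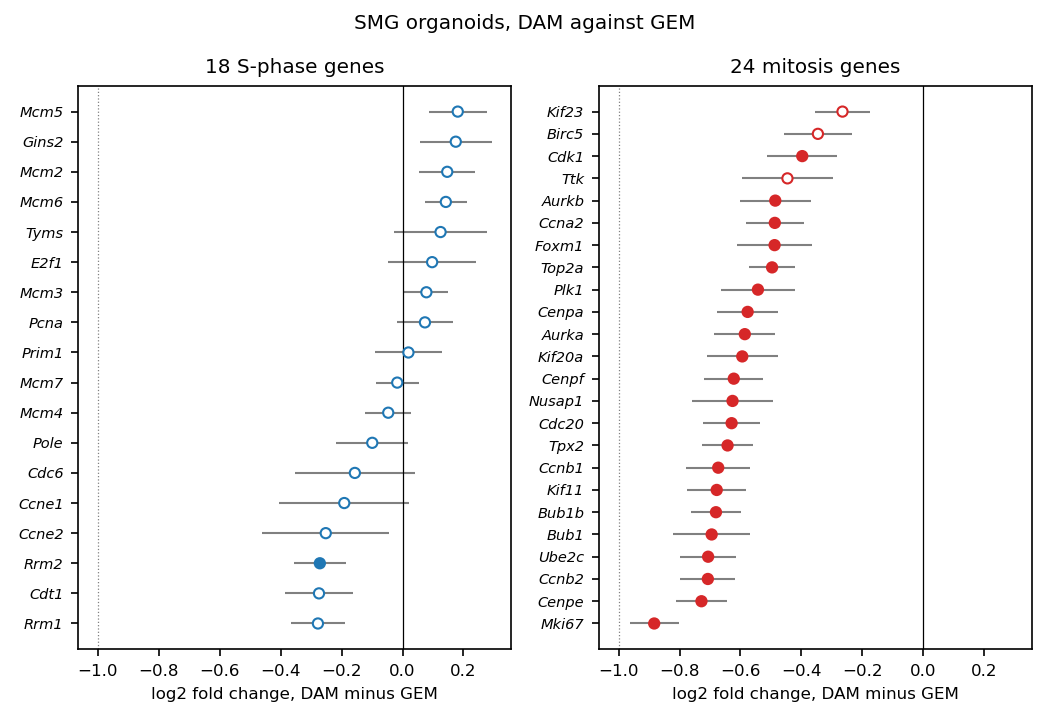
Log2 fold change (DAM minus GEM, horizontal axis) with its standard error for each of the 18 S-phase genes and 24 mitosis genes in SMG organoids, 2 libraries a group. Filled points passed an adjusted p under 0.05. The mitosis genes lie between -0.88 and -0.27, and the S-phase genes lie on both sides of 0, between -0.28 and 0.18.

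The S-phase genes had a median of 0.00, with 9 of 18 above 0. None was called, beside 1.81% of all genes called higher and 1.15% called lower. At the adjusted p alone 1 was lower and none higher, beside 12.1% and 6.7% of all genes, and 0 to 2 passed over the other settings. Rrm2, the small subunit of ribonucleotide reductase, was the one that passed, and it missed the adjusted p when any 1 of the 4 libraries was left out. It was at 37.6 and 41.7 CPM in the DAM, against 47.1 and 48.6 CPM in the GEM (-0.27 ± 0.09, adjusted p = 0.049 by edgeR). Its partner Rrm1, the large subunit, had the lowest value of the list (-0.28 ± 0.09, adjusted p = 0.051 by edgeR).

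Mcm5 had the highest fold change of the S-phase genes. It was at 37.3 and 42.2 CPM in the DAM, against 32.8 and 37.3 CPM in the GEM (0.18 ± 0.09, adjusted p = 0.2 by edgeR). Mcm2 was at 48.4 and 47.6 CPM in the DAM, against 39.5 and 47.1 CPM in the GEM (0.15 ± 0.09). Pcna was at 132 and 151 CPM in the DAM, against 132 and 137 CPM in the GEM (0.07 ± 0.09). The media overlapped for Mcm5 and Pcna, and neither passed. The genes of S-phase entry were low in abundance. Cdc6 was at 2.90 and 3.63 CPM in the DAM, against 3.83 and 3.45 CPM in the GEM (-0.16 ± 0.20). Ccne1, cyclin E1, was at 3.38 and 3.82 CPM in the DAM, against 3.45 and 4.76 CPM in the GEM (-0.19 ± 0.21). Its paralog Ccne2 was at 5.50 and 4.52 CPM in the DAM, against 6.81 and 5.14 CPM in the GEM (-0.25 ± 0.21). In these 3 the media overlapped, as they did for E2f1. E2f1, an activator of S-phase genes, was at 12.4 and 14.6 CPM in the DAM, against 11.6 and 13.7 CPM in the GEM (0.10 ± 0.14).

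Other genes of the same phases were counted as well, beside the 12.1% of all genes lower and 6.7% higher at the adjusted p. Of 40 other S-phase genes, 2 were lower at the adjusted p and none higher, with a median of 0.02. These were Dbf4 (-0.42), the partner of the origin-firing kinase Cdc7, and Rfc4 (-0.47), a subunit of the clamp loader. Of 50 other mitosis genes 47 were tested, of which 38 were lower and none higher, with a median of -0.49. The smallest p-values were those of Ect2 (-0.76), Racgap1 (-0.58), Aspm (-0.77) and Prc1 (-0.56), genes of the spindle and of cytokinesis. Of 18 regulators around E2F and DREAM 5 were lower and none higher. Among them were the retinoblastoma gene Rb1 (-0.62), E2f3 (-0.36), E2f7 (-0.69) and Mybl2 (-0.55), which encodes B-Myb.

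The balance of the lists within a library is moved by no scaling between libraries. Summed counts of the 24 mitosis genes over those of the 18 S-phase genes gave a ratio of 1.27 and 1.28 in SMG organoids in the DAM, against 1.87 and 1.96 in the GEM. The ratio was 1.24 and 1.18 in PG organoids and 0.896 and 0.924 in SLG organoids. In tissue it was 0.413 and 0.509 for PG, 0.300 and 0.492 for SLG, and 0.515 and 0.497 for SMG. Each organoid library lay above each tissue library, and both GEM libraries lay above the other 12. PG tissue overlapped with SLG and with SMG tissue. Taken as a difference of median log2 CPM in place of summed counts, PG and SLG organoids overlapped. No test was run on this ratio.

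**Figure D2:**
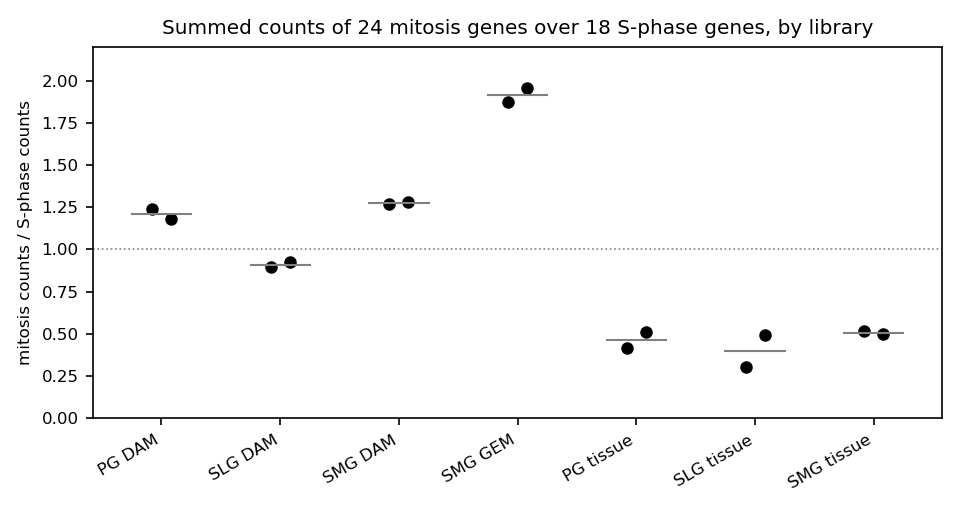
Summed counts of 24 mitosis genes divided by summed counts of 18 S-phase genes (vertical axis, no unit) in each of the 14 libraries, by group. SMG organoids in the GEM sit at 1.87 and 1.96, SLG organoids at 0.896 and 0.924, and the tissue libraries between 0.300 and 0.515.

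The next comparisons asked how organoids of the glands differed in the same medium, the DAM. Between PG and SMG organoids 12 of 18 S-phase genes were higher in PG and none lower, beside 22.1% of all genes in either direction, with a median of 0.44. Of these 2 were called, Cdc6 and Ccne1, beside 9.16% of all genes called higher and 5.55% called lower. Without replicate 1 of SMG organoids in the DAM, or without the PG library numbered 3, none was called. Of 24 mitosis genes none was called, and at the adjusted p 9 were higher and 1 lower, with a median of 0.23.

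Cdc6, which loads the helicase, had the highest fold change of the S-phase genes. It was at 6.49 and 7.51 CPM in PG organoids, against 2.90 and 3.63 CPM in SMG organoids (1.10 ± 0.19, adjusted p = 8.32e-04 by edgeR). Ccne1 was at 6.20 and 8.50 CPM in PG organoids, against 3.38 and 3.82 CPM in SMG organoids (1.03 ± 0.21). Ccne2 was at 6.55 and 9.10 CPM in PG organoids, against 5.50 and 4.52 CPM in SMG organoids (0.64 ± 0.21). All 3 passed, and so did 5 of the 6 helicase subunits, Mcm7 being the exception. Mcm5 was at 62.5 and 69.9 CPM in PG organoids, against 37.3 and 42.2 CPM in SMG organoids (0.73 ± 0.09). Mcm2 was at 61.2 and 63.3 CPM in PG organoids, against 48.4 and 47.6 CPM in SMG organoids (0.38 ± 0.09). The glands did not overlap in any of these 5 genes, beside 5911 of all 16260 genes that were higher in PG without overlap.

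Of the remaining genes Prim1, Pole, Rrm1 and Tyms were higher in PG organoids too, and 6 S-phase genes did not pass, among them Mcm7, Cdt1 and Gins2. Pcna was at 133 and 158 CPM in PG organoids, against 132 and 151 CPM in SMG organoids (0.04 ± 0.09, adjusted p = 0.73 by edgeR). Rrm2 was at 36.9 and 41.9 CPM in PG organoids, against 37.6 and 41.7 CPM in SMG organoids (-0.01 ± 0.09). In both the glands overlapped. E2f1 had the lowest value of the list, at 9.85 and 12.0 CPM in PG organoids, against 12.4 and 14.6 CPM in SMG organoids (-0.31 ± 0.14, adjusted p = 0.1 by edgeR).

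Mitosis genes went both ways. Ttk, a kinase of the spindle checkpoint, was highest in fold change. It was at 14.9 and 16.8 CPM in PG organoids, against 8.21 and 10.8 CPM in SMG organoids (0.73 ± 0.15, adjusted p = 0.0021 by edgeR). Ube2c was lowest, at 28.2 and 32.6 CPM in PG organoids, against 37.6 and 40.1 CPM in SMG organoids (-0.36 ± 0.09, adjusted p = 0.0096 by edgeR). Mki67, Top2a, Ccnb1 and Cdk1 were higher in PG organoids. Mki67 was at 162 and 144 CPM in PG organoids, against 112 and 123 CPM in SMG organoids (0.38 ± 0.08). Top2a was at 193 and 211 CPM in PG organoids, against 139 and 153 CPM in SMG organoids (0.47 ± 0.08). Ccnb1 was at 42.4 and 49.0 CPM in PG organoids, against 28.4 and 32.6 CPM in SMG organoids (0.58 ± 0.10). Cdk1 differed by 0.34 ± 0.11. The kinesin Kif11, which separates spindle poles, and the centromere kinesin Cenpe differed by 0.67 and 0.64.

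The remaining mitosis genes followed in every library did not pass. Cdc20 was at 31.0 and 33.4 CPM in PG organoids, against 31.6 and 30.6 CPM in SMG organoids. Aurkb was at 15.7 and 17.5 CPM in PG organoids, against 19.2 and 17.5 CPM in SMG organoids. Cenpa was at 21.8 and 22.1 CPM in PG organoids, against 28.1 and 23.7 CPM in SMG organoids. Plk1 and Foxm1 had values of 0.32 and 0.13. Of 40 other S-phase genes 17 were higher and 3 lower at the adjusted p, and of 47 other mitosis genes 18 were higher and 5 lower. Beside these, 22.1% of all genes were higher and 22.1% lower. Orc1, a subunit of the origin recognition complex, was higher by 1.38, and Gins4, a part of the active helicase, was at -0.73.

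In SLG against SMG organoids all 24 mitosis genes were lower at the adjusted p, beside 22.6% of all genes, with a median of -0.80. Of them 6 were called, beside 6.28% of all genes called lower and 8.91% called higher. These were Nusap1, Cenpa, Aurka, Ube2c, Tpx2 and Kif23, of which Aurka, Tpx2, Nusap1 and Kif23 act on the spindle or its midzone. On log2(TPM + 1) and log2(TPM + 0.1) 1 and 2 were called.

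Nusap1, a microtubule-bundling protein, was lowest. It was at 14.2 and 13.4 CPM in SLG organoids, against 35.3 and 47.3 CPM in SMG organoids (-1.58 ± 0.14, adjusted p = 1.13e-05 by edgeR). Cenpa was at 11.5 and 10.1 CPM in SLG organoids, against 28.1 and 23.7 CPM in SMG organoids (-1.26 ± 0.10). Ube2c was at 17.5 and 17.2 CPM in SLG organoids, against 37.6 and 40.1 CPM in SMG organoids (-1.16 ± 0.10). Aurka, the kinase of the spindle poles, and its activator Tpx2 changed by -1.19 and -1.05. Mki67 and Top2a were lower by less than 2-fold. Mki67 was at 83.0 and 86.7 CPM in SLG organoids, against 112 and 123 CPM in SMG organoids (-0.47 ± 0.08). Top2a was at 93.0 and 92.1 CPM in SLG organoids, against 139 and 153 CPM in SMG organoids (-0.66 ± 0.08). Cdk1 was at 28.9 and 31.5 CPM in SLG organoids, against 49.0 and 59.0 CPM in SMG organoids (-0.84 ± 0.12).

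The other mitosis genes lay in the same direction. Ccnb1 was at 16.8 and 18.9 CPM in SLG organoids, against 28.4 and 32.6 CPM in SMG organoids (-0.77 ± 0.11). Cdc20 was at 18.9 and 16.8 CPM in SLG organoids, against 31.6 and 30.6 CPM in SMG organoids (-0.80 ± 0.09). Aurkb was at 11.4 and 9.41 CPM in SLG organoids, against 19.2 and 17.5 CPM in SMG organoids (-0.82 ± 0.12). Plk1 changed by -0.49 ± 0.12 and Foxm1, with the smallest decrease, by -0.42 ± 0.12, adjusted p = 0.016 by edgeR. Each of the 24 genes had both SLG libraries under both SMG libraries, beside 38.1% of all genes. Of 47 other mitosis genes 42 were lower at the adjusted p, beside 22.6% of all genes, with a median of -0.68. Among them was the phosphatase Cdc25b (-1.09) that activates Cdk1.

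The S-phase genes had a median of -0.23, with 10 of 18 lower at the adjusted p, beside 22.6% of all genes, and none higher, beside 23.9%. Only Rrm2 was called. It was at 19.2 and 19.1 CPM in SLG organoids, against 37.6 and 41.7 CPM in SMG organoids (-1.05 ± 0.09, adjusted p = 2.66e-06 by edgeR). With library totals, on TPM, or without replicate 2 of SMG organoids in the DAM none was called, and 2 were called without replicate 1 of either gland. The 10 were 5 without SMG replicate 2 or SLG replicate 1, and 4 without SLG replicate 2. E2f1 and Pcna were lower too. E2f1 was at 7.60 and 6.79 CPM in SLG organoids, against 12.4 and 14.6 CPM in SMG organoids (-0.91 ± 0.15). Pcna was at 95.3 and 93.3 CPM in SLG organoids, against 132 and 151 CPM in SMG organoids (-0.58 ± 0.09).

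Several genes of origin licensing and entry did not pass between SLG and SMG organoids. Mcm2 was at 54.4 and 48.9 CPM in SLG organoids, against 48.4 and 47.6 CPM in SMG organoids (0.11 ± 0.09, adjusted p = 0.38 by edgeR). Mcm5 was at 33.4 and 34.0 CPM in SLG organoids, against 37.3 and 42.2 CPM in SMG organoids (-0.24 ± 0.09). Cdc6, with the highest fold change of the list, was at 4.29 and 3.37 CPM in SLG organoids, against 2.90 and 3.63 CPM in SMG organoids (0.23 ± 0.20). The glands overlapped for Cdc6, and Ccne1 and Ccne2 had values of 0.07 and -0.08. Of 40 other S-phase genes 23 were lower and 2 higher at the adjusted p, beside 22.6% and 23.9% of all genes. The smallest p-values were those of Tk1, thymidine kinase (-1.57), Gins4 (-0.88) and the kinase Cdc7 (-1.28). Apart from these genes, Lyz2, a macrophage marker, was at 40.6 and 34.8 CPM in SLG organoids on the scale of all libraries, against 0 and 0.0561 CPM in SMG organoids in the DAM. Of 12 immune markers 2 had no count of 0 in an organoid library, Itgam and Cd68, both of myeloid cells. They went the other way and were called lower in SLG than in SMG organoids (-2.55 and -2.36), and higher in PG than in SLG organoids (4.004 and 1.64). Their part in the results was not tested. Ptprc, the pan-leukocyte marker, was at 0 in all 8 organoid libraries.

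PG organoids were higher than SLG organoids in both lists. All 24 mitosis genes and all 18 S-phase genes were higher at the adjusted p, beside 16.6% of all genes, and in none of them did the glands overlap, beside 32.6% of all genes. Of the mitosis genes 11 were called, beside 5.83% of all genes called higher and 3.93% called lower, with a median of 0.96. Of the S-phase genes only Rrm2 was called, with a list median of 0.72. On log2(TPM + 1) 7 mitosis genes and no S-phase gene were called. Without the PG library numbered 3 no S-phase gene was called, without PG replicate 1 or SLG replicate 2 there were 3, and without SLG replicate 1 there were 2.

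Nusap1 had the highest fold change of the mitosis genes. It was at 34.8 and 40.2 CPM in PG organoids, against 14.2 and 13.4 CPM in SLG organoids (1.44 ± 0.14, adjusted p = 3.65e-05 by edgeR). Foxm1 had the lowest, at 14.9 and 14.6 CPM in PG organoids, against 9.89 and 10.2 CPM in SLG organoids (0.55 ± 0.12). Rrm2 led the S-phase genes, at 36.9 and 41.9 CPM in PG organoids, against 19.2 and 19.1 CPM in SLG organoids (1.04 ± 0.09). Mcm2 was last of them, at 61.2 and 63.3 CPM in PG organoids, against 54.4 and 48.9 CPM in SLG organoids (0.27 ± 0.09, adjusted p = 0.043 by edgeR). The 3 comparisons between glands share libraries in pairs.

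**Figure D3:**
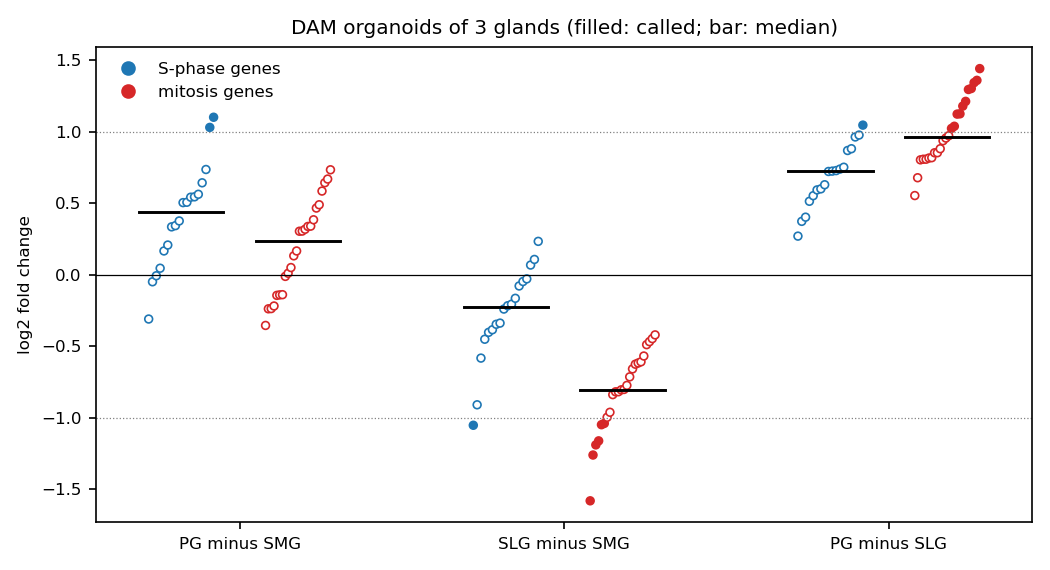
Log2 fold changes (vertical axis) of 18 S-phase genes and 24 mitosis genes between DAM organoids of the glands. Each point is a gene, filled where called, and the bar is the median. The mitosis median is 0.23 in PG minus SMG, -0.80 in SLG minus SMG and 0.96 in PG minus SLG, and the S-phase medians are 0.44, -0.23 and 0.72.

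Organoids were then set against tissue of their own gland, to see how far the cultures differ from it. Cdc6 had a count of 0 in replicate 2 of SMG tissue and Ttk in replicate 1 of PG tissue, and these genes were left out, so that 17 S-phase and 23 mitosis genes were tested among 14323 genes. All 23 mitosis genes were called higher in PG, SLG and SMG organoids in the DAM and in SMG organoids in the GEM, beside 24.2%, 19.7%, 23% and 22.9% of all genes. Their medians were 3.41, 2.62, 3.29 and 3.91. Of the 17 S-phase genes 12, 13, 13 and 13 were called higher in the same order, with medians of 1.63, 1.64, 1.80 and 2.11. No member was called lower, beside 22.6%, 18.6%, 22.4% and 22.6% of all genes. The SMG comparisons share the SMG tissue libraries.

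In SMG organoids in the DAM Aurkb had the highest fold change of the mitosis genes. On the scale of all libraries it was at 17.2 and 15.6 CPM in SMG organoids, against 1.10 and 0.479 CPM in SMG tissue (4.33 ± 0.25, adjusted p = 1.02e-10 by edgeR). Mki67 had the lowest, at 100 and 110 CPM in SMG organoids, against 27.1 and 22.0 CPM in SMG tissue (2.10 ± 0.22, adjusted p = 7.16e-06 by edgeR). No organoid library overlapped tissue in any of the 23, beside 46.4% of all genes. Top2a was at 125 and 137 CPM in SMG organoids, against 11.7 and 10.6 CPM in SMG tissue (3.55 ± 0.25). Ccnb1 was at 25.5 and 29.1 CPM in SMG organoids, against 3.02 and 2.40 CPM in SMG tissue (3.32 ± 0.26). Cdc20 was at 28.4 and 27.3 CPM in SMG organoids, against 2.56 and 1.85 CPM in SMG tissue (3.64 ± 0.30).

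The other glands gave the same direction. Mki67 was at 145 and 126 CPM in PG organoids, against 23.2 and 23.8 CPM in PG tissue. It was at 71.9 and 75.4 CPM in SLG organoids, against 10.8 and 20.2 CPM in SLG tissue. It reached 197 and 203 CPM in SMG organoids in the GEM, against 27.1 and 22.0 CPM in SMG tissue. Top2a had the highest value in PG (4.63 ± 0.26) and Foxm1 the lowest (1.97 ± 0.25). In SLG these were Kif23 (3.62 ± 0.15), a kinesin of cytokinesis, and Aurka (1.36 ± 0.25). In the GEM they were Aurkb (4.86 ± 0.25) and Foxm1 (2.64 ± 0.26).

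The S-phase genes had a wide range of values. Gins2, a subunit of the active helicase, had the highest value in SMG organoids in the DAM (3.62 ± 0.23) and in PG organoids (4.54 ± 0.24), and Mcm3 had it in SLG organoids (3.30 ± 0.13). In SMG organoids in the DAM Mcm5 was at 33.4 and 37.8 CPM in SMG organoids, against 6.33 and 3.49 CPM in SMG tissue (2.83 ± 0.21). Pcna was at 118 and 135 CPM in SMG organoids, against 49.9 and 51.8 CPM in SMG tissue (1.32 ± 0.09). Mcm2 was at 43.4 and 42.5 CPM in SMG organoids, against 19.3 and 18.1 CPM in SMG tissue (1.20 ± 0.11). These were all called. Tyms, thymidylate synthase, had the lowest value and was not. It was at 15.8 and 18.7 CPM in SMG organoids, against 11.0 and 13.7 CPM in SMG tissue (0.48 ± 0.15, adjusted p = 0.0094 by edgeR). E2f1 and Ccne1 had values of 0.50 and 0.57, of which Ccne1 missed the adjusted p (0.054 by edgeR).

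Rrm2 differed by gland. It was at 33.0 and 36.6 CPM in PG organoids, against 29.6 and 25.6 CPM in PG tissue (0.33 ± 0.11). In the SLG it was at 16.6 and 16.6 CPM in SLG organoids, against 4.21 and 5.28 CPM in SLG tissue (1.79 ± 0.12). In the SMG it was at 33.7 and 37.3 CPM in SMG organoids, against 10.6 and 9.72 CPM in SMG tissue (1.80 ± 0.12). The organoid and tissue difference of PG minus that of SMG was -1.47 ± 0.17, adjusted p = 1.81e-06 by edgeR. Of 40 members tested, 8 were called higher and 1 lower in this term, beside 13.6% and 11.4% of all genes. For SLG minus SMG 5 were called lower and none higher, beside 10.4% and 11.8% of all genes, and for PG minus SLG 15 were called higher and 1 lower, beside 13.4% and 13% of all genes. Ccne1 in PG (0.18 ± 0.22, adjusted p = 0.47 by edgeR) and the primase gene Prim1 in SLG (0.00 ± 0.14, adjusted p = 0.98 by edgeR) did not pass.

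**Figure D4:**
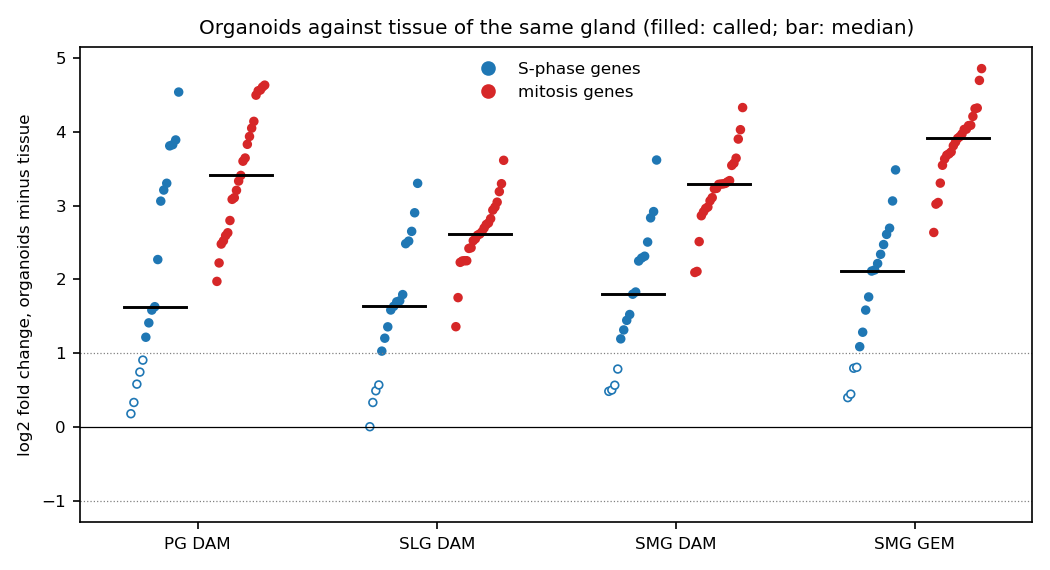
Log2 fold changes of organoids minus tissue of the same gland (vertical axis) for 17 S-phase genes and 23 mitosis genes. Each point is a gene, filled where called, and the bar is the median. Every mitosis gene lies above 1, with medians of 3.41, 2.62, 3.29 and 3.91, and the S-phase genes spread between 0.00 and 4.54.

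Tissue held more RNA of other cell types than organoids did. On the scale of all libraries fibroblast markers summed to 0.754 to 1.74 CPM in organoids, against 197 to 678 CPM in tissue, and endothelial markers to 0.503 to 1.06 CPM in organoids, against 36.3 to 118 CPM in tissue. Immune markers summed to 8.46 to 42.7 CPM in organoids, against 65.8 to 144 CPM in tissue, and erythroid markers to 0 to 1.32 CPM in organoids, against 99.7 to 209 CPM in tissue. Ptprc and the globin gene Hbb-bs were at 0 in all organoid libraries. The 4 acinar markers Aqp5, Bhlha15, Pip and Smgc summed to 146 to 1040 CPM in organoids, against 11630 to 77370 CPM in tissue. In tissue Pip alone was at 6572 to 64880 CPM. Aqp5 was at 796 and 727 CPM in SMG organoids in the DAM, against 843 and 868 CPM in SMG tissue. In the GEM it was at 1006 and 999 CPM. It was lower in PG and SLG organoids (127 to 164 CPM) than in PG and SLG tissue (862 to 1322 CPM). The part of these cells in the differences was not tested. With library totals in place of TMM the median of all genes was itself 2.09, 1.14, 2.1 and 1.98 for PG, SLG and SMG organoids in the DAM and SMG organoids in the GEM, so that the folds are relative to the other genes.

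**Figure D5:**
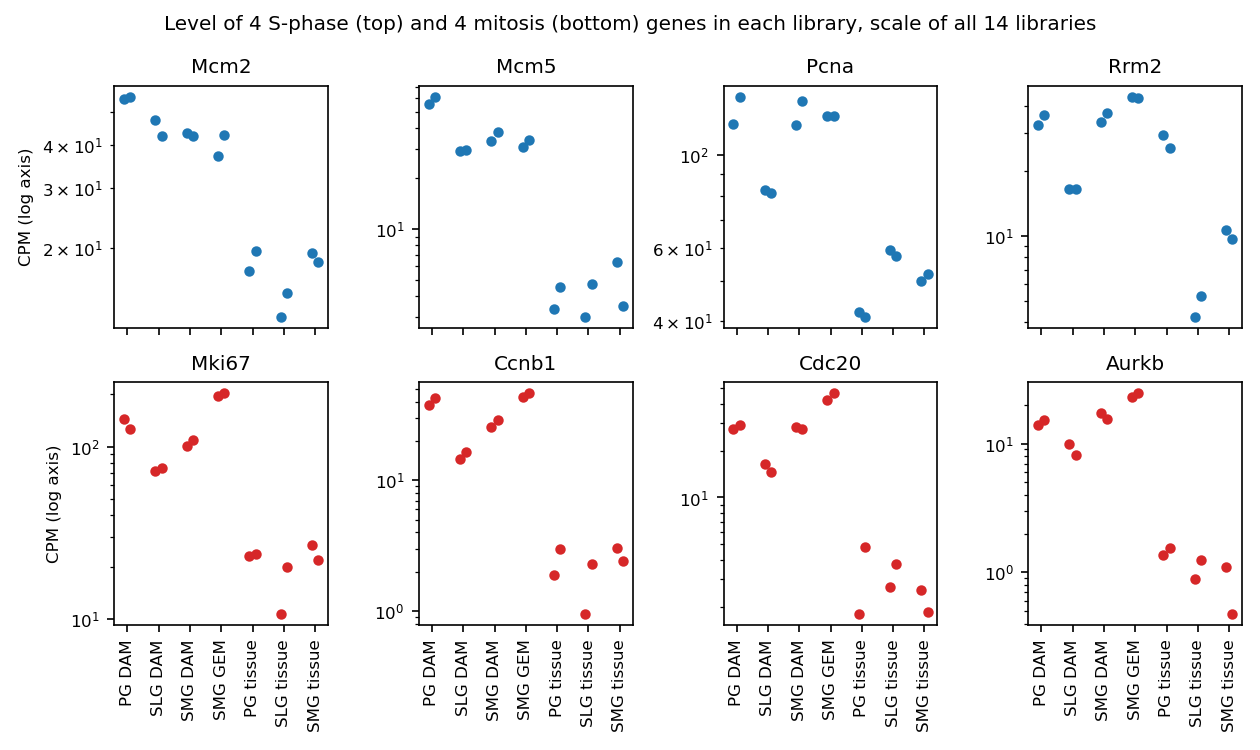
Level of 4 S-phase genes (top) and 4 mitosis genes (bottom) in each library, in CPM on a log axis and on the scale of all 14 libraries, with groups along the horizontal axis. Mki67 lies at 71.9 CPM or above in all organoid libraries and at 27.1 CPM or below in all tissue libraries, and Rrm2 in PG tissue lies above Rrm2 in both SLG organoid libraries.

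Between tissues of the glands few mitosis genes passed. In PG against SMG tissue Plk1 was called higher and Cenpf and Kif20a lower of 23, beside 6.71% and 6.78% of all genes. Both lower calls were lost with library totals, with no filter and when replicate 1 or 2 of SMG tissue or replicate 1 of PG tissue was left out, and 1 was left without PG tissue replicate 2. Plk1 was at 4.19 and 2.93 CPM in PG tissue, against 1.80 and 1.64 CPM in SMG tissue (1.05 ± 0.35, adjusted p = 0.028 by edgeR). Cenpf, a kinetochore protein, was at 1.12 and 2.47 CPM in PG tissue, against 4.07 and 3.63 CPM in SMG tissue (-1.10 ± 0.40, adjusted p = 0.039 by edgeR). Of 17 S-phase genes Rrm2 and Ccne1 were called higher. Rrm2 was at 29.6 and 25.6 CPM in PG tissue, against 10.6 and 9.72 CPM in SMG tissue (1.44 ± 0.16). Ccne1 was at 6.33 and 5.09 CPM in PG tissue, against 2.03 and 2.33 CPM in SMG tissue (1.39 ± 0.30).

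In SLG against SMG tissue none of the 23 mitosis genes passed the adjusted p, beside 27.7% of all genes higher and 22.2% lower at it, and 8.38% called higher and 11.9% called lower. Their values lay between -0.75 (Kif23) and 0.67 (Aurka). Of 17 S-phase genes E2f1 and Rrm2 were called lower, a share near the 11.9% of all genes. E2f1 was at 2.29 and 3.76 CPM in SLG tissue, against 7.96 and 9.17 CPM in SMG tissue (-1.43 ± 0.26, adjusted p = 6.56e-04 by edgeR). Rrm2 was at 4.21 and 5.28 CPM in SLG tissue, against 10.6 and 9.72 CPM in SMG tissue (-1.04 ± 0.17). With library totals, where the median of all genes was 0.98, neither was called, and on TPM the sign of Rrm2 turned (0.21 and 0.36 at pseudocounts of 1 and 0.1). On log2(TPM + 1) the median of all genes was itself 1.23. Without replicate 1 of either tissue 1 S-phase gene was called lower.

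In PG against SLG tissue Rrm2, Ccne1 and E2f1 were called higher and Gins2 and Mcm4 lower, of 17 S-phase genes tested. These shares were near the 15.7% and 12.6% of all genes. Rrm2 was at 29.6 and 25.6 CPM in PG tissue, against 4.21 and 5.28 CPM in SLG tissue (2.48 ± 0.17, adjusted p = 7.47e-08 by edgeR). Gins2 was at 0.779 and 0.565 CPM in PG tissue, against 1.56 and 1.70 CPM in SLG tissue (-1.32 ± 0.43). No mitosis gene was called, and Plk1 (0.94) and Birc5 (0.88), which encodes survivin, were higher at the adjusted p, beside 28.8% of all genes. With library totals, where the median of all genes was -0.85, 1 S-phase gene was called higher.

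The SLG tissue libraries stood apart from each other. All 24 mitosis genes were higher in replicate 2 than in replicate 1, by a median of 0.57 on the log2 scale, and their summed level was 54.7 CPM in replicate 1 and 93.2 CPM in replicate 2. Without replicate 2, 4 mitosis genes were called lower in SLG against SMG tissue and 5 higher in PG against SLG tissue. With either library left out all 23 mitosis genes were called higher in SLG organoids than in SLG tissue.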

How the data were processed

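Bulk RNA-seq of 14 libraries was analysed. The submitters' processing notes name HISAT2, StringTie, DESeq2 and the build GRCm38, without saying which tool made which value, and the authors deposited read counts, FPKM and TPM per gene. Settings and strand handling were not stated in the sources used here. The deposited counts were used as whole numbers. The deposited TPM values were used for 12 libraries, to compare levels between genes. In all 16 value columns were not used, those of FPKM and the TPM of the columns numbered 3, of which 4 match no label. Counts of 2 columns numbered 3, for which the labels list a replicate 2, were placed in their groups by name. The labels name total RNA and the methods mRNA as the input.

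Counts were tested with edgeR 4.0.16 in R 4.3.3 (TMM, robust quasi-likelihood F-test, Benjamini-Hochberg adjustment over all genes of a model). Models were fitted on the 8 organoid libraries, the 6 tissue libraries and all 14, each without the genes that had 0 counts in one of its libraries. Calls needed both an adjusted p under 0.05 and a change of more than 1 on the log2 scale. Standard errors are the log2 fold change over the square root of F. The smallest library held 56383651 counts. The scripts were tested on simulated data. The 17 genes given in every library were fixed by role, and to these were added the lowest and highest value of each list and called genes. The members and lists were chosen with earlier results of these data known. Alternatives were DESeq2 1.42.0, limma 3.58.1 on log2(TPM + 1) and log2(TPM + 0.1) for genes averaging 1 TPM or more, other scaling, filters, a replicate block, fits on the compared groups and leaving out each library. Promoter windows came from RefSeq on GRCm38.p6.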

Additional observations from a re-analysis of the deposited data

Results flagged for a closer look

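The difference between organoids and tissue was itself compared between glands by an interaction term in edgeR, and 30 such values passed an adjusted p under 0.05 with a log2 difference beyond 1. Of 40 members tested 9 did so between PG and SMG, 5 between SLG and SMG and 16 between PG and SLG. Beside these, 13.6% of all genes were called higher and 11.4% lower between PG and SMG, 11.8% and 10.4% between SLG and SMG, and 13.4% and 13% between PG and SLG. Between PG and SMG the share of members called in either direction was near that of all genes. So was the share of members called lower between SLG and SMG.

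The organoid minus tissue difference was larger in PG than in SMG for the helicase genes Mcm3 (1.30), Mcm4 (1.05) and Mcm5 (1.06). Mitosis genes with a larger difference in PG than in SMG were Cenpf (1.43), Kif20a (1.31), Bub1 (1.26), Kif11 (1.16) and Top2a (1.09). Rrm2, the small subunit of ribonucleotide reductase, went the other way (-1.47).

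In SLG the difference was smaller than in SMG for Aurka (-1.88), Cdc20 (-1.39), Aurkb (-1.28), Nusap1 (-1.21) and Ccnb2 (-1.09), all of them mitosis genes. These values rest on few counts in SMG tissue. In its replicates 1 and 2 Aurka had 15 and 37 counts, Cdc20 44 and 27, and Aurkb 19 and 7. Nusap1 had 40 and 32 there, and Ccnb2 31 and 26.

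In PG it was larger than in SLG for the replication genes Gins2 (1.89), Mcm4 (1.72), Pole (1.31), Prim1 (1.21) and Pcna (1.14) and for Rrm1 (1.36). It was also larger for the mitosis genes Kif20a (1.99), Aurka (1.85), Bub1 (1.62), Kif11 (1.54) and Cenpf (1.52). Smaller values of the same sign were those of Top2a (1.34), Bub1b (1.18), Nusap1 (1.11) and Cdk1 (1.07). Rrm2 was again the exception (-1.46). Some of these genes had few counts in PG tissue, with 16 and 11 for Gins2, 12 and 18 for Bub1, and 23 and 48 for Cenpf. The glands share libraries in pairs, so these comparisons are not independent. With library totals the median of all genes in these terms was -0.03 for PG minus SMG, -0.92 for SLG minus SMG and 0.88 for PG minus SLG.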

How the results depend on the processing

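For 138 results of single genes, all past the adjusted p in the fit reported above, 1776 values came from another setting. Of these 1624 kept direction and an adjusted p under 0.05, 142 kept direction and missed it, and 10 reversed. The 2-fold threshold of a call was no part of this check. The reversals were all between tissues. They were Pcna in PG against SMG tissue on TPM (0.25 and 0.28 at pseudocounts of 1 and 0.1), Rrm2 in SLG against SMG tissue on TPM (0.21 and 0.36), Mcm2 in SLG against SMG tissue with library totals (0.59) and on TPM (0.64 and 0.97), and Mcm2 in PG against SLG tissue with library totals (-0.51) and on TPM (-0.33 and -0.48). The median of all genes was itself shifted in these settings. On log2(TPM + 1) it was 0.40 for PG against SMG, 1.23 for SLG against SMG and -0.81 for PG against SLG tissue. With library totals it was 0.985 for SLG against SMG and -0.849 for PG against SLG tissue. On TPM, 8 S-phase genes and 1 mitosis gene could be tested between tissues, since the others averaged under 1 TPM.

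Counts of called members moved as follows. At the adjusted p alone there were 21 mitosis genes in the DAM against the GEM, 12 S-phase and 9 mitosis genes in PG against SMG organoids, 10 and 24 in SLG against SMG organoids, 18 and 24 in PG against SLG organoids, 5 S-phase genes in SLG against SMG tissue, 6 S-phase and 2 mitosis genes in PG against SLG tissue, and interaction terms of 23 members for PG minus SMG and 16 for SLG minus SMG. On log2(TPM + 1) there were 1 S-phase gene in PG against SMG organoids, 0 S-phase and 1 mitosis gene in SLG against SMG organoids, 0 and 7 in PG against SLG organoids, 1 and 0 in PG against SMG tissue, 0 S-phase genes in SLG against SMG tissue and 1 in PG against SLG tissue, with interaction terms of 1 member for PG minus SMG and 11 for SLG minus SMG. On log2(TPM + 0.1) there were 0 S-phase and 2 mitosis genes in SLG against SMG organoids, 1 and 0 in PG against SMG tissue, 0 S-phase genes in SLG against SMG tissue and 1 in PG against SLG tissue, with interaction terms of 2, 30 and 28 members for PG minus SMG, SLG minus SMG and PG minus SLG. With library totals there were 0 S-phase genes in SLG against SMG organoids and in SLG against SMG tissue, 1 in PG against SLG tissue, 0 mitosis genes in PG against SMG tissue, and interaction terms of 28 members for SLG minus SMG and 32 for PG minus SLG. Fits on the compared groups alone gave 2 S-phase genes in PG against SLG organoids and 1 mitosis gene in PG against SMG tissue. DESeq2 and filterByExpr gave 1 mitosis gene in PG against SMG tissue, and no filter gave 0 there and 1 S-phase gene in SLG against SMG tissue. For the interaction terms, library totals called 818 of all 14323 genes higher and 6278 lower in SLG minus SMG. In PG minus SLG they called 6226 and 562. On log2(TPM + 1), of 13012 genes, 496 were called higher and 5313 lower in SLG minus SMG, and 1031 and 1559 in PG minus SMG. Shares of all genes at the adjusted p alone and on log2(TPM + 0.1) are not given for these terms, so those counts are not judged. The cause of these changes was not tested.

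The log2 difference of the mitosis to S-phase ratio, as a median of log2 CPM, was -0.74 for the DAM minus the GEM, -0.18 for PG minus SMG and -0.28 for SLG minus SMG organoids, 1.46 for SMG, 1.15 for PG and 0.749 for SLG organoids minus tissue, the last against 1.24 from summed counts. For SMG organoids minus tissue it was 1.71 from summed TPM and 1.29 without Ccne1, Ccne2 and E2f1. By library, the median log2 CPM of mitosis genes minus that of S-phase genes was 0.091 and -0.126 in PG organoids. In SLG organoids it was -0.093 and -0.131, so that these glands overlapped, which they did not from summed counts.

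Leaving out each library gave 0 to 2 S-phase genes in PG against SMG organoids and in SLG against SMG organoids, 0 to 3 in PG against SLG organoids, 2 to 3 in PG against SMG tissue and in PG against SLG tissue, and 1 to 3 in SLG against SMG tissue. It gave 5 to 8 mitosis genes in SLG against SMG organoids, 0 to 1 in PG against SMG tissue, 0 to 4 in SLG against SMG tissue and 0 to 5 in PG against SLG tissue. Interaction terms ran from 5 (without SMG organoids in the DAM, replicate 1) to 11 for PG minus SMG, from 2 (without SMG or SLG tissue replicate 2) to 9 (without SLG tissue replicate 1) for SLG minus SMG, and from 11 to 22 for PG minus SLG. Where 1 library was left in a group, it took the spread of the remaining groups.

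With the replicate number as a replicate block, 1 S-phase gene in PG against SMG organoids and 1 mitosis gene in PG against SMG tissue were called, and other counts stayed within 1.5 times. Deviations of libraries, taken in the order of their numbers, correlated at 0.018 to 0.363 in organoids, over 0.1 in 4 of 6 pairs of groups, and at -0.036 to -0.017 in tissue. Among organoids only 2 of the 6 pairs carry the same numbers (0.077 for SMG and SLG in the DAM, 0.302 for PG in the DAM and SMG in the GEM), and not every pair was over 0.1, so the numbers were not taken to pair libraries. The highest value, 0.363, was that of SMG organoids in the DAM and in the GEM. The block goes by number and does not pair their libraries numbered 2 and 3, so pairing was not tested for that comparison. Counts at the adjusted p alone under each setting were chosen after seeing the data. On the scale of all libraries mitosis genes summed to 462 to 1311 CPM in organoids, against 54.7 to 100.1 CPM in tissue. The part of the lower levels in tissue in the few calls between tissues was not tested.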
